A study of Mus musculus with 7 samples.

Results

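Arfip1, Rer1 and Tbc1d9b encode proteins of Golgi and vesicle traffic, and together they account for 5 of the 278 alternative splicing events (3 of 228 gene names) listed for mouse incisor epithelium with and without induced loss of the splicing factor Srsf1. The members were taken as every row carrying the name of any of these genes, and all 5 rows proved to be cassette exons, which are either included or skipped as a unit. The genes were picked with their control-to-mutant differences already known, so those differences are given below as description and no test of them is used as support. All 7 RNA-seq libraries came from epithelial tissue of the cervical loop, where stem cells renew the ever-growing mouse incisor, in K14CreER;Srsf1fl/fl mice aged 8 to 10 weeks. The keratin 14 promoter drives a tamoxifen-dependent Cre recombinase in basal epithelium, and Cre removes the loxP-flanked part of Srsf1. The 3 control libraries (replicates 1, 2 and 7) were from uninduced mice, and tamoxifen had been given to the mice behind the 4 mutant libraries (replicates 3, 4, 5 and 9). Every group carries both the transgene and the floxed allele, so exposure to tamoxifen and deletion of Srsf1 cannot be told apart. Whether each library is a separate animal is not stated, and SDs and SEs therefore measure only the spread between these samples.

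Membrane proteins leave the endoplasmic reticulum in coated vesicles, pass through the Golgi and are sorted towards the surface, endosomes or back. Small GTPases of the ARF family recruit coats and membrane-shaping proteins at the Golgi, while Rab GTPases direct vesicles to their targets. Arfip1 encodes arfaptin-1, which binds ARF-family GTPases and curved membrane at the trans-Golgi. Rer1 encodes a cis-Golgi receptor that returns escaped membrane proteins and unassembled subunits to the endoplasmic reticulum. Tbc1d9b encodes a TBC-domain protein, and TBC domains accelerate GTP hydrolysis by Rabs. Cervical loop progenitors give rise to ameloblasts, which secrete enamel matrix.

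The exons themselves are shown first, since they differ in what they add to the message. Coordinates are on GRCm38, sequences are from GENCODE M21 transcripts, and each is written 5′ to 3′ on the transcript strand. The Arfip1 exon has alternative ends: a 96-nucleotide form at chr3:84529170-84529265 and a 75-nucleotide form at chr3:84529191-84529265, both on the minus strand. Capitals mark the 21 nucleotides found only in the longer form. They begin with GT, the usual first bases of an intron, and the shorter form ends just before them.

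Arfip1 96-nucleotide exon: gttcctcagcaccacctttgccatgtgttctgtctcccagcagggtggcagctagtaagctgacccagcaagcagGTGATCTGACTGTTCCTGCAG

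The Tbc1d9b exon is 57 nucleotides long, at chr11:50168169-50168225 on the plus strand. Capitals mark GGA, the core of the purine-rich sequence that SRSF1 is known to bind in exons.

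Tbc1d9b 57-nucleotide exon: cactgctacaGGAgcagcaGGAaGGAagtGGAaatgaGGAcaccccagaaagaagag

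The Rer1 exon lies upstream of the start codon, between the first exon and the exon that holds the ATG. It too has 2 forms, of 209 nucleotides (chr4:155083109-155083317) and 128 nucleotides (chr4:155083109-155083236) on the minus strand, which share their 3′ end. The 81 nucleotides by which they differ end with AG, the usual last bases of an intron. The joins below show 15 bases on each side, with the cassette exon in capitals in the first 2 and the start codon in capitals in the last.

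Rer1 first exon to 209-nucleotide form: caccggagctgcgagCAGAGGGACCTGGGA

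Rer1 first exon to 128-nucleotide form: caccggagctgcgagGACTGATGACAGAGG

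Rer1 first exon to start codon exon, cassette skipped: caccggagctgcgagttacagaATGtctga

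**Figure D1:**
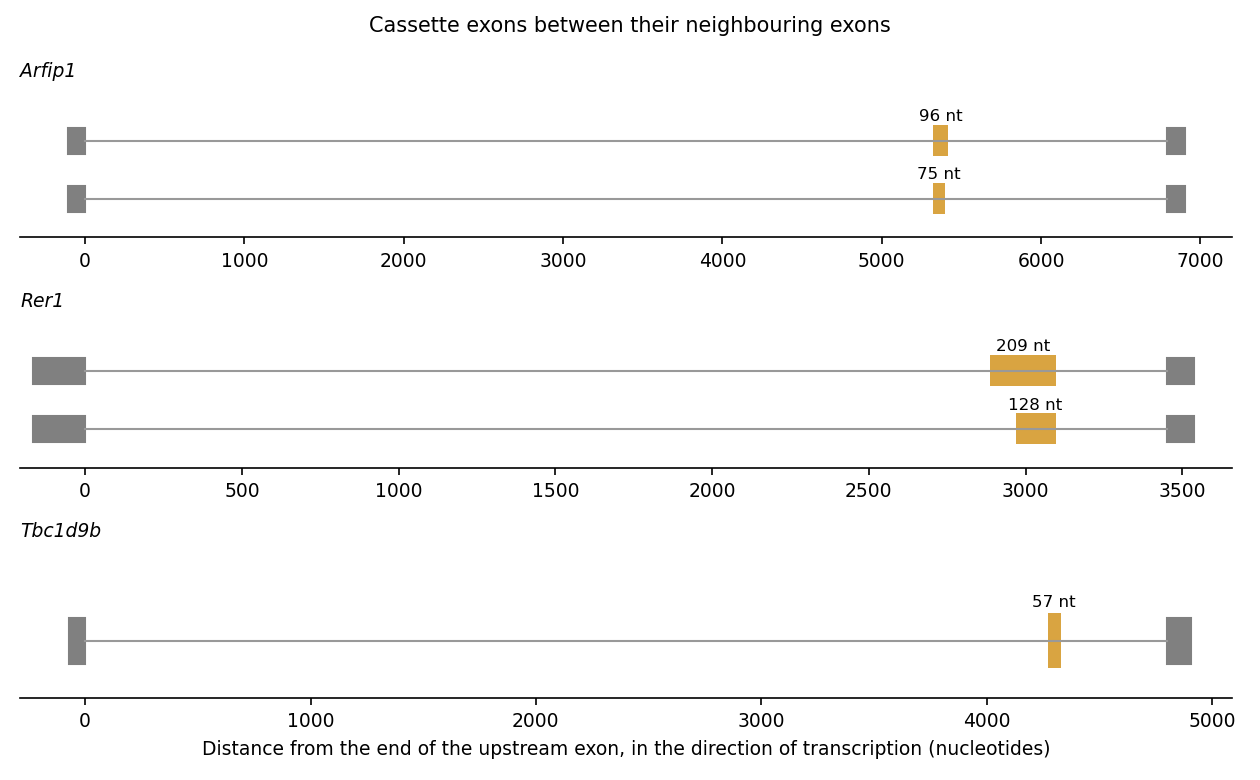
The cassette exons (yellow) and their neighbouring exons (grey) are drawn to scale within each gene, with distance in nucleotides from the end of the upstream exon on the horizontal axis. For Arfip1 and Rer1, the neighbouring exons of both forms are drawn at the lengths annotated with the longer form. All lie nearer to the downstream exon than to the upstream exon. The Arfip1 forms differ at their downstream end and the Rer1 forms at their upstream end.

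Percent spliced in (PSI) gives inclusion of an exon as a percentage of the reads on its inclusion and skipping junctions. The read numbers behind the values are unknown, so no counting interval can be given. The event listed for Srsf1 itself, an alternative last exon, was at 5.83%, 8% and 10.07% in controls 1, 2 and 7. Mutants 3, 4, 5 and 9 were at 65.6%, 44.74%, 85.52% and 55.83%, all above every control. This event measures the use of splice junctions and not the amount of Srsf1 RNA. Like the other events, it was listed for a difference between the groups, so it is not an independent check of the labels. In bulk tissue, a different mix of cells, less RNA per cell and altered splicing within cells cannot be told apart. None of 12 markers of dental epithelium, 10 of dental mesenchyme or 8 of blood and endothelium has a listed event, and gene expression was not among the values used, so the tissue label could not be checked. The median absolute difference in PSI over all listed events was 1.94 to 2.92 points between controls, 3.32 to 5.89 points between mutants and 9.95 to 17.2 points between a control and a mutant. The listed events were selected for a difference between the groups. The larger distance between a control and a mutant was thus built in, and nothing is read from it.

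Inclusion of the Arfip1 exon was higher in the mutants in both of its forms. The 96-nucleotide form had a PSI of 38.36%, 48.1% and 42.11% in controls 1, 2 and 7, and of 50.96%, 71.43%, 67.05% and 59.38% in mutants 3, 4, 5 and 9. The lowest mutant was 2.86 points above the highest control, so the groups did not overlap. Means were 42.9% ± 4.91 (SD, n = 3) and 62.2% ± 9.00 (SD, n = 4), a difference of 19.3 points (SE 4.88). The 75-nucleotide form was at 26.23%, 31.67% and 20% in the controls and at 37.04%, 58.82%, 53.23% and 40.91% in the mutants, in the same library order. Here the gap between the groups was 5.37 points, and the difference of means was 21.5 points (SE 5.52), from 26.0% ± 5.84 (SD, n = 3) to 47.5% ± 10.2 (SD, n = 4). In both forms mutant 4 was the highest library and mutant 3 the lowest of the mutants. The forms share a skipping junction and their upstream inclusion junction, so they are not separate observations.

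In every library the longer Arfip1 form had the higher PSI. The margin was 16.9 ± 5.01 points (SD, n = 3) in the controls and 14.7 ± 2.58 points (SD, n = 4) in the mutants, which is within the spread of the libraries. The odds of inclusion against skipping, PSI divided by its remainder to 100%, were 1.75 to 2.91 times higher for the longer form in the controls (median 2.00) and 1.75 to 2.11 times in the mutants (median 1.78). These ranges overlap, while the odds themselves averaged 0.759 for the longer form in the controls and 1.76 in the mutants. How reads on the shared junction were assigned to the forms is not recorded in the table or labels. In mutant 4 the forms were at 71.43% and 58.82%, which together exceed 100%. The PSI values of the forms are therefore not shares of a single total.

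Both Arfip1 forms keep the reading frame. The gene (ENSMUSG00000074513.9, chr3:84496093-84582625) has annotated proteins of 341 residues without the exon, 366 with the shorter form (transcript Arfip1-202) and 373 with the longer form (Arfip1-203). The exon is exon 4 of 9 in those transcripts. It adds 25 or 32 residues, and its bases fall in codons 68 to 93 or 68 to 100, near the amino end of the protein. Removing it from either coding sequence gave the annotated 341-residue open frame exactly.

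**Figure D2:**
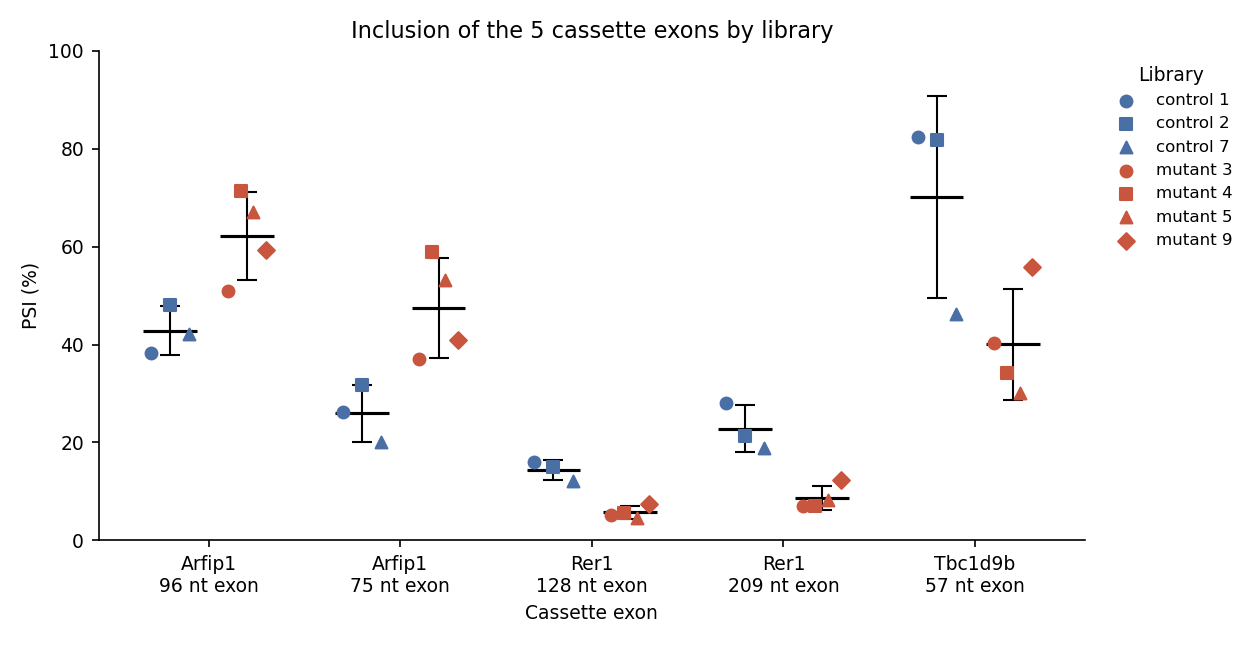
PSI (%) of the 5 cassette exons in each library, with blue symbols for the 3 controls, red symbols for the 4 mutants, and black bars for the mean ± SD. Control and mutant values are separate for both Arfip1 forms and both Rer1 forms, and control 7 of Tbc1d9b, at 46.23%, sits among the mutants.

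The Rer1 exon was a minor form in the controls and rarer still in the mutants. The 209-nucleotide form was at 28.12%, 21.26% and 18.91% in controls 1, 2 and 7, and at 6.95%, 6.99%, 8.26% and 12.26% in mutants 3, 4, 5 and 9. All mutants lay at least 6.65 points below the lowest control. The mean was 22.8% ± 4.79 (SD, n = 3) in the controls and 8.62% ± 2.50 (SD, n = 4) in the mutants, a 2.64-fold lower level and a difference of −14.1 points (SE 2.69). The 128-nucleotide form was at 16.06%, 14.91% and 12.2% in the controls and at 5.12%, 5.67%, 4.52% and 7.46% in the mutants. Its mean was 14.4% ± 1.98 (SD, n = 3) against 5.69% ± 1.27 (SD, n = 4), 2.53-fold lower (difference −8.70 points, SE 1.85), with 4.74 points between the groups. Control 7 was the lowest control and mutant 9 the highest mutant for both forms. As in Arfip1, the forms share the skipping junction and 1 inclusion junction, so their PSI values need not be shares of a single total.

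The longer Rer1 form exceeded the shorter form in all 7 libraries. The margin in points was 8.37 ± 3.20 (SD, n = 3) in the controls and 2.92 ± 1.63 (SD, n = 4) in the mutants. On the odds scale the longer form was 1.54 to 2.04 times higher in the controls (median 1.68) and 1.25 to 1.90 times in the mutants (median 1.56), which overlap. Odds of inclusion of the longer form averaged 0.298 in the controls and 0.0949 in the mutants.

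Unlike the Arfip1 and Tbc1d9b exons, the Rer1 exon lies outside the coding sequence. Rer1 (ENSMUSG00000029048.3, chr4:155074110-155086382) has 1 annotated protein-coding transcript, which skips the exon and encodes 196 residues. Each form of the exon occurs in a single annotated transcript, and neither of these is classed as coding. In the coding transcript the leader before the start codon is 176 nucleotides, and inserting the exon at its place makes it 304 or 385 nucleotides. The skipped leader holds no ATG. Either form of the exon brings in 1 upstream ATG, visible at the start of the 128-nucleotide form above, and its frame closes before the RER1 start codon. Neither length is divisible by 3, which has no bearing on the RER1 frame at this position.

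**Figure D3:**
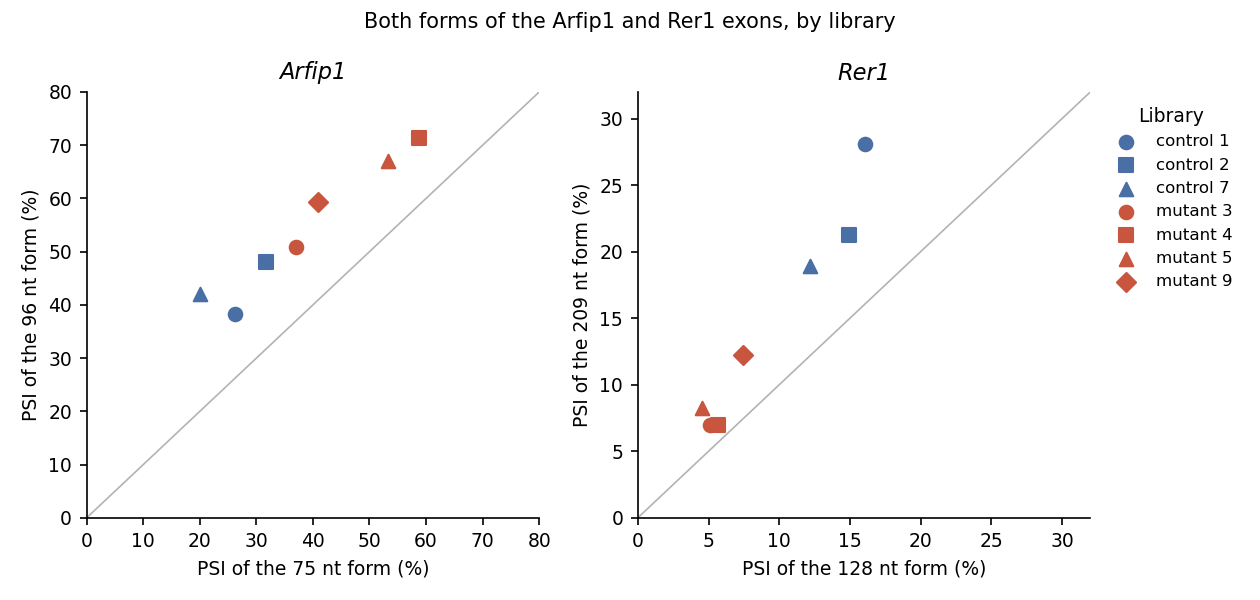
PSI (%) of the shorter form (horizontal) against the longer form (vertical) of the Arfip1 and Rer1 exons, with 1 symbol per library and a line of equality. All points are above the line, and within each gene the controls and mutants separate along it, with the mutants higher in Arfip1 and lower in Rer1.

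The Tbc1d9b exon was lower in the mutants on average, but its controls disagreed. Controls 1, 2 and 7 were at 82.35%, 81.82% and 46.23%, and mutants 3, 4, 5 and 9 at 40.32%, 34.09%, 30% and 55.74%. Control 7 lay below mutant 9 and above the other mutants, so the groups overlapped (lowest control minus highest mutant, −9.51 points). The mean was 70.1% ± 20.7 (SD, n = 3) in the controls and 40.0% ± 11.3 (SD, n = 4) in the mutants, a difference of −30.1 points (SE 9.65). Without control 7 the difference of means was −42.0 points, and without control 1 or control 2 it was −24.0 and −24.3 points. In these last cases the event did not pass limma's test, a moderated linear model fitted over the whole table (adjusted p = 0.0593 and 0.0662). Because a median of 3 follows the pair of high controls, the difference of medians was larger, at −44.6 points, and was −26.8 and −27.1 without control 1 or 2.

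The Tbc1d9b controls had the largest SD of all 278 listed events, against a median control SD of 2.21 points. Its difference of medians ranked 1st among the 173 listed cassette exons, but 13th without control 1, 11th without control 2 and, by difference of means with all libraries, 4th. The library weights estimated by limma over the whole table, which are lower for libraries that scatter more, were 2.00, 2.35 and 0.816 for controls 1, 2 and 7 and 0.407 to 1.06 for the mutants. Setting the control mean of each event at 0% and the mutant mean at 100%, controls 1, 2 and 7 had a median position over all events of 1.28%, 2.77% and −5.87%, whereas control 7 stood at 79.4% for Tbc1d9b. Of the 12 listed events whose groups overlap, control 7 lay within the mutant range in 8, control 1 in 2 and control 2 in 2. Mutant 9 had the lowest median position of the mutants, at 78.7%, and was at 47.8% for Tbc1d9b, 79.7% and 74.2% for the Rer1 forms and 85.4% and 69.4% for the Arfip1 forms. The part of read depth in these values was not tested.

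The Tbc1d9b exon also keeps the frame. The gene (ENSMUSG00000036644.15, chr11:50131396-50172785) has coding transcripts of 1246 residues (Tbc1d9b-201) and 1263 residues (Tbc1d9b-202), and both include the exon. It adds 19 residues, in codons 956 to 975 of the shorter protein, which leaves 1227 residues and no stop codon in the frame when it is removed. The skipping junction is the only one of the 11 junctions of the 3 genes that is not an intron of GENCODE M21, and the authors' deposited table also classes the event as having a junction outside its annotation. The events of Arfip1 and Rer1 are classed as known.

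All 5 events passed the limma threshold (adjusted p below 0.05) with all libraries. Since 95.7% of all listed events and 97.7% of listed cassette exons did so, and the genes were picked from this contrast, nothing is read from that count. Higher in the mutants were 2 of the 5, against 16.9% of all listed events and 15.0% of the cassette exons. Both are forms of the Arfip1 exon. Lower were 3 of the 5, 2 of them forms of the Rer1 exon, against 78.8% and 82.7%. Forms of the same exon are not separate observations. Groups did not overlap for 4 of the 5, against 95.7% of all listed events and 95.4% of the cassette exons. In the authors' deposited table the corrected DRIMSeq p, a test of isoform proportions, was 0.0948 for both Arfip1 forms, 0.00362 for both Rer1 forms and 0.0796 for Tbc1d9b. The value is shared within each gene, and the Arfip1 value is close to the highest in that table, 0.0979. The corrected JuncBASE p in the authors' deposited table was 0.305 for both Arfip1 forms, 0.226 and 0.321 for the 128- and 209-nucleotide Rer1 forms and 0.532 for Tbc1d9b. Only 1 of the 278 listed events had a corrected JuncBASE p below 0.05, and the Srsf1 event was at 0.328. Nothing particular to the 3 genes is therefore read from these values.

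Among the 173 listed cassette exons, 26 were higher and 147 lower in the mutants, so the direction of Arfip1 was the less common one. Ranked by absolute difference of medians, the 96- and 75-nucleotide Arfip1 forms were 27th and 29th of these exons, at 21.1 and 20.8 points against a median of 13.4, and by difference of means 43rd and 25th. The 209- and 128-nucleotide Rer1 forms were 80th and 119th by medians, from control levels far below the median control PSI of 88.9%.

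**Figure D4:**
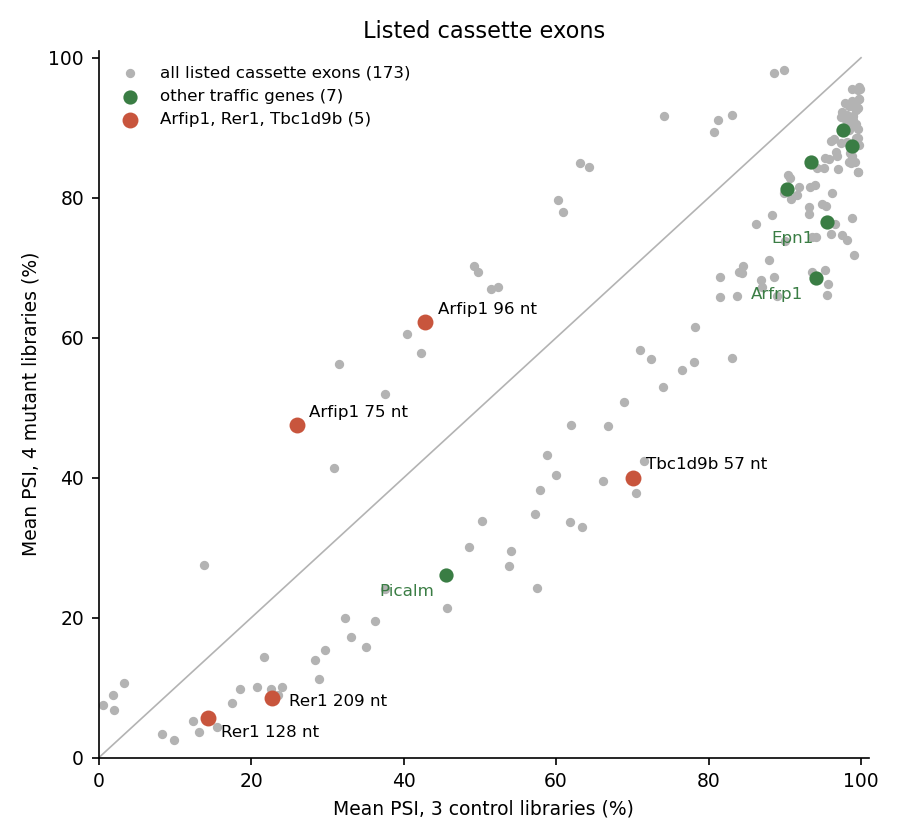
Mean PSI (%) over the 3 control libraries (horizontal) and the 4 mutant libraries (vertical) for all 173 listed cassette exons, with a line of equality. The 5 exons of Arfip1, Rer1 and Tbc1d9b are red and the 7 of other genes on the traffic lists green. Both Arfip1 forms lie above the line, and the other 10 coloured exons below it.

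The exon sequences sit far apart in their content of GGA. Searched on the transcript strand with overlaps allowed, GGA occurred in 92.5% of the 173 cassette exons, with a median of 3.17 per 100 nucleotides. The Tbc1d9b exon holds 5, or 8.77 per 100 nucleotides, the highest density among these exons, narrowly above an exon of Golim4 at 8.70. Both Arfip1 forms hold 0 and belong to the 13 exons without any. The 209-nucleotide Rer1 exon holds 7 (3.35 per 100), of which 2 fall in the part shared with the 128-nucleotide form (1.56 per 100). Over the table, exons lower in the mutants had a median of 3.35 GGA per 100 nucleotides and 1 of 147 had none, while those that were higher had a median of 0.595 and 12 of 26 had none. The longer motifs GGAGA and GAAGAA, present in 24.9% and 9.83% of the exons, are in none of the 5. These are counts of letters and are given without a test, and overlapping forms of an exon are counted separately.

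**Figure D5:**
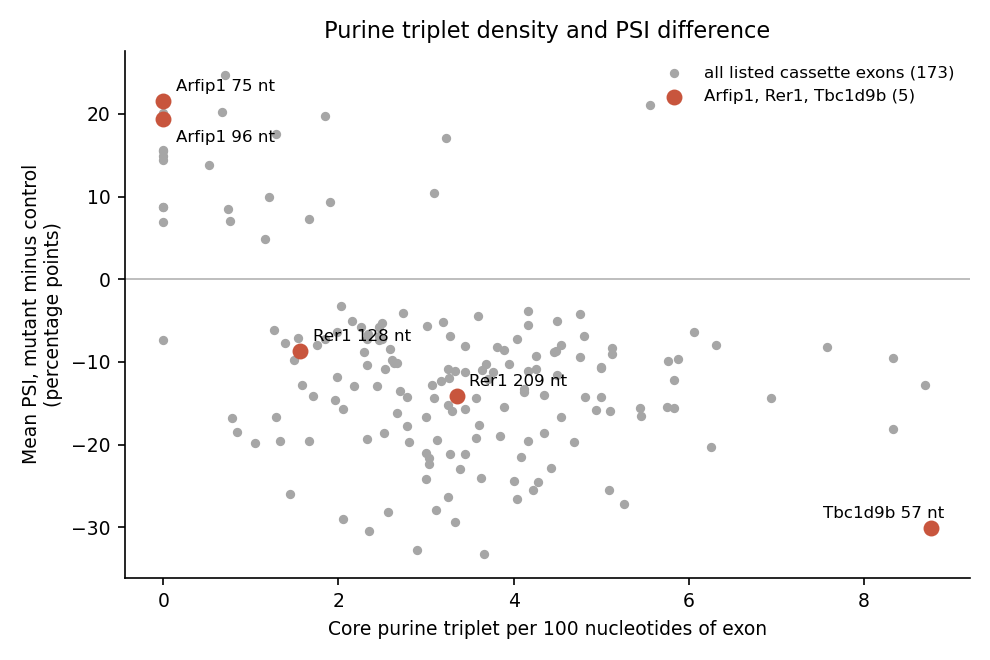
Number of GGA triplets (the core purine triplet of the axis) per 100 nucleotides of exon against the difference in mean PSI, mutant minus control, in percentage points, for the 173 listed cassette exons. Tbc1d9b is the point farthest to the right, at 8.77 and −30.1 points, and both Arfip1 forms are at 0 on the horizontal axis with differences of 19.3 and 21.5 points.

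Lengths of the 5 exons ran from 57 to 209 nucleotides, around the median of 116 for all listed cassette exons. The 3 coding forms are divisible by 3, as are 59.0% of the 173. The Rer1 forms are among the few outside annotated coding sequence, since 91.9% of the exons lie in it.

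Other genes of the pathway were read from 8 lists covering vesicle coats, ARF GTPases and their regulators, cargo receptors, golgins and tethers, TBC-domain proteins, Rabs, adaptors, and membrane fusion. The lists are not exhaustive. Traffic genes with a listed exon such as Golim4, Appl1 and Pacsin2 are on none of them, so the counts hold for the lists only. Of their 354 genes, 10 had a listed event, and without the 3 genes above 7 of 351 did, with 11 events. Of these 11 events, 9 were lower and 1 higher past the limma threshold (background 78.8% lower and 16.9% higher), and 1 did not pass. Some of the Sec31a events among them overlap and are not separate observations. The median difference of medians of the 11 events was −10.2 points, against −11.3 over all listed events. Like the members, these events were listed for a difference in this contrast. The limma p-values given for them below are therefore description and are not used as support. None of the 48 golgins and tethers or the 49 fusion genes had an event in the table, and genes without a listed event cannot be called unchanged.

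In the ARF list, Arfrp1 was the only gene listed besides Arfip1. It encodes an ARF-related GTPase that acts upstream of ARL1 at the trans-Golgi, and a 71-nucleotide exon of it fell from 94.1% ± 4.33 (SD, n = 3) to 68.6% ± 3.80 (SD, n = 4), a difference of −25.5 points (SE 2.90, limma adjusted p = 0.000774). This exon was lower in the mutants while the Arfip1 exon was higher. Ergic3, a membrane protein that cycles between the endoplasmic reticulum and Golgi, was the other cargo receptor listed. A first exon of it was at 99.4% ± 0.701 and 96.0% ± 1.07, which did not pass in the limma fit used throughout (limma adjusted p = 0.0750). The event did pass on the logit scale, with library weights and with a trended robust prior (limma adjusted p = 0.00270, 0.0433 and 0.00825). No TBC-domain gene other than Tbc1d9b, out of 40, was listed.

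Coat and adaptor genes on the lists had 7 listed events in 3 genes, of which 6 were lower in the mutants, against 78.8% of all listed events. Sec31a, a subunit of the outer coat of COPII vesicles, had 5 events, of which 4 fell and 1 rose. Some of these overlap, so the 5 are not separate observations. Its cassette exons of 39 and 78 nucleotides fell from 93.5% ± 1.15 to 85.1% ± 1.90 and from 90.3% ± 2.82 to 81.3% ± 2.01 (limma adjusted p = 0.00424 and 0.00527). Its first exons were listed in opposite directions as the same switch (difference of means 11.4 and −11.5 points). In Picalm, which helps to assemble clathrin coats, a 150-nucleotide coding exon fell from 45.6% ± 5.83 to 26.1% ± 4.04, and in Epn1, encoding the endocytic adaptor epsin 1, an exon outside the coding sequence fell from 95.5% ± 1.90 to 76.6% ± 9.38 (limma adjusted p = 0.00172 and 0.00663). Among the 58 Rab genes, exons of Rab28 and Rab8a fell, from 98.9% ± 1.17 to 87.3% ± 3.03 and from 97.7% ± 2.80 to 89.7% ± 3.12 (limma adjusted p = 0.00224 and 0.0135). Without control 1 the Rab8a exon did not pass (limma adjusted p = 0.0563, difference of means −6.74 points). Values in this paragraph are means ± SD over 3 controls and 4 mutants.

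The cassette exons of other genes with the most similar PSI values were found by the mean absolute difference over the 7 libraries, among 168 exons and with no test. For the 96-nucleotide Arfip1 form these were exons of Lsm6, Rnf14 and Pitpnb, at 4.81, 6.41 and 7.02 points. Among the nearest to the 75-nucleotide form were Calu and Bod1l, at 5.65 and 7.33 points. Exons of Fubp1 and Firre were among the nearest to the 128-nucleotide Rer1 form, at 2.29 and 2.36 points, and those nearest to the 209-nucleotide form were of Gtf2ird1, Ybx3 and Enpp2, at 2.48, 2.73 and 2.73 points. Nearest to Tbc1d9b were Ogdhl, Dnm1l and Zc3h14, at 5.08, 9.70 and 10.6 points. The smaller distances were those of Rer1, whose PSI was also low, and a link between distance and PSI level was not tested.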

How the data were processed

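The authors deposited a table of splicing events that holds PSI per library as a percent, group medians in the same unit and their difference as a score, per the file headers. JuncBASE identified the events, per the labels' series text, and Bowtie, TopHat, SAMtools, DESeq and mm9 are named in the submitters' processing notes without versions. The deposited p-values are from JuncBASE and DRIMSeq, per the file headers, and every corrected DRIMSeq p is at most 0.0979, so the table is a selected set of events. Depth per library or event is not given. The junctions matched GENCODE M21 (GRCm38) introns in 650 of 863 cases (377 of 405 in events classed as known, and 0 of 863 after a shift of 1000 bases), so coordinates were read as GRCm38 despite the mm9 note. Recomputed medians were within 0.005 points of the deposited ones, and 0 library columns were unused.

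PSI in points was fitted with limma 3.58.1 in R 4.3.3 over all 278 events and 7 libraries, mutant against control, with Benjamini-Hochberg adjustment and a threshold of 0.05. The step was tested on simulated data. Groups came from the labels, no batch is named, and libraries of a group were not identical. Summaries and figures used Python 3.11.15, pandas 2.3.3, numpy 2.4.6 and matplotlib 3.10.9. Exon sequences came from GENCODE M21 transcripts; introns were not read. Alternatives were a logit scale (offset 0.5 points), library weights, a trended robust prior, 1 event per overlap group (236 events, each event of the 3 genes kept) and leaving out each library. The members and lists were chosen with earlier results of these data known. Named genes were the members, Srsf1, list genes with events (values for up to 2 a list) and the 3 nearest exons to each member exon, of which some are not reported here.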

Additional observations from a re-analysis of the deposited data

How the results depend on the processing

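All 5 events of Arfip1, Rer1 and Tbc1d9b kept their direction under every alternative run. They passed the limma threshold under each, except that 4 of 5 did without control 1 or control 2, where Tbc1d9b did not. The difference of means, leaving out each library in turn, ran from 16.3 to 23.1 points for the 96-nucleotide and 17.76 to 25.02 points for the 75-nucleotide Arfip1 form. For Rer1 it ran from −9.79 to −7.86 points (128 nucleotides) and from −16.1 to −11.5 points (209 nucleotides), and for Tbc1d9b from −42.0 to −24.0 points, with limma adjusted p from 0.00365 to 0.0662. The count of listed events past the threshold was 266 of 278 as reported, 239 to 266 without a library, 275 on the logit scale, 272 with library weights, 278 with a trended robust prior and 227 of 236 with 1 event per overlap group. Over all named events, 336 alternative values with a test kept their call, 7 lost it, 3 gained it (all for Ergic3) and 0 changed direction. Those lost beyond Tbc1d9b and Rab8a were Calu on the logit scale and without control 7, and Enpp2 without control 1 or 2. No paired analysis was possible because the groups share no replicate number. Without read numbers, the precision of each PSI is unknown.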
